A study of Mus musculus with 13 samples.

Results

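Lcn2, 3 serum amyloid A genes (Saa1, Saa2, Saa3), Hp, Orm1, Ptx3, Cp, Steap4 and Serpina3n are the 10 acute-phase genes described here. They were matched by mouse symbol among the 53379 genes of the bulk RNA-seq count table of thymic stromal cells, and all 10 were among the 19984 genes that passed the filter on low counts. They were chosen by their measured values 1 day after total body irradiation (TBI) together with their membership of the acute-phase family. Their day 1 levels are therefore given as a description, without a test.

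The acute-phase response is a change in secreted proteins that follows infection or tissue injury. IL-6 and related cytokines act through STAT3, and IL-1 and TNF act through NF-κB and C/EBP factors, to raise transcription of these genes. The liver is the best known source, but epithelial cells, fibroblasts (FBs), fat cells and neutrophils also make several of them. In the thymus, irradiation kills most developing thymocytes and leaves a stroma of TECs (thymic epithelial cells), FBs and ECs (endothelial cells) that takes part in the regrowth of the organ.

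The libraries were made from sorted CD45- cells of thymuses of wild-type C57BL/6 mice aged 2 months. There were 4 libraries at steady state (SS), and after a sublethal dose of TBI there were 3 each on days 1, 4 and 7. The labels call the SS mice untreated, whereas the columns of the count table name them as PBS controls, namely PBS day 1 replicate 2, PBS day 4 replicate 2, PBS day 7 replicate 1 and PBS day 7 replicate 2. The 4 SS values of a gene are always given in this order, and those of the other days in the order of the replicate numbers. The labels do not tie a library to 1 animal or to a pool. The methods of the study call the bulk libraries biological replicates, a term used there for individual mice. The p-values measure the spread between these libraries.

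Total counts per library ran from 15721866 to 52056896. Levels are given as CPM, the counts scaled to the normalized library size, and levels of different genes are compared only after division by the summed exon length (CPM per kb). In bulk libraries, more RNA of a gene per cell and more cells that carry it cannot be told apart. The sort was not free of other cells, since Ptprc, which encodes CD45, was at 24.0 to 119 CPM at SS, 12.7 to 15.0 at day 1, 4.07 to 4.54 at day 4 and 21.6 to 606 at day 7. The summed level of 5 FB markers ran from 8620 to 92801 CPM at SS, with the highest value in PBS day 4 replicate 2, and from 17626 to 61741 CPM in the libraries after TBI. Col3a1 and Col1a1 led this sum in every library, and Pdgfra was lowest at SS in PBS day 4 replicate 2 (659 CPM). The 5 EC markers summed to 688 to 1195 CPM over all libraries. The 7 TEC markers summed to 609 to 2399 CPM at SS, 552 to 1421 at day 1, 1306 to 2608 at day 4 and 422 to 866 at day 7.

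The 10 genes lie on 7 chromosomes (GRCm38, coordinates of the deposited exons). Saa3 (ENSMUSG00000040026, chromosome 7, 46711998 to 46715700, minus strand), Saa1 (ENSMUSG00000074115, chromosome 7, 46740497 to 46742980, minus strand) and Saa2 (ENSMUSG00000057465, chromosome 7, 46751790 to 46754313, plus strand) form a cluster. In the coding sequences of GENCODE M21, Saa1 and Saa2 were 95.1% identical over 366 bases and shared an identical run of 99 bases, whereas Saa1 and Saa3 were 75.7% identical. Reads that align equally well to several places are left out by the counting program by default, so the Saa1 and Saa2 counts may miss shared reads. Orm1 has the same limit, since it is 89.9% identical to Orm2 and 86.0% to Orm3. Serpina3n was at most 85.2% identical to the other Serpina3 genes compared, the closest being Serpina3m. Of the exon bases of Cp, 1.13% overlap Hps3, and the other 9 genes overlap no other gene.

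The sequences before the RefSeq start sites are shown for the Saa cluster and for Ptx3, because Saa1 and Saa2 share nearly the same upstream sequence and Saa3 does not. Sequences are from RefSeq on GRCm38.p6, 5′ to 3′ on the strand of the gene. Bases that fall in a deposited exon of the gene were left out. Capitals mark matches to the C/EBP motif TTGCNNAA on either strand. The Saa1 and Saa2 windows are chr7:46742981-46743230 and chr7:46751583-46751789, the Saa3 window is chr7:46715701-46715926, and the Ptx3 window is chr3:66219637-66219886.
Saa1: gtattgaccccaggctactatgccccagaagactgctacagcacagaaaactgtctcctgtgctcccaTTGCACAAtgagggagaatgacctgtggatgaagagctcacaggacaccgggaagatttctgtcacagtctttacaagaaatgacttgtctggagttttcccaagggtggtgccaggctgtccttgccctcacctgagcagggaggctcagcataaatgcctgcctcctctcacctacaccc
Saa2: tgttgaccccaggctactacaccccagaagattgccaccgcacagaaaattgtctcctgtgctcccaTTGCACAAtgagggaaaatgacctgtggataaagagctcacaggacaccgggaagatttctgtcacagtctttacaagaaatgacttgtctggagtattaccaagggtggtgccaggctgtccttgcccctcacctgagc
Saa3: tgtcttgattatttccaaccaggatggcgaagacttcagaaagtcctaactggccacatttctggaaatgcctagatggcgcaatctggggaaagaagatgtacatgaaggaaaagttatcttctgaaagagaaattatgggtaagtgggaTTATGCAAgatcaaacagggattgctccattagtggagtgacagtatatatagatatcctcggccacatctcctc
Ptx3: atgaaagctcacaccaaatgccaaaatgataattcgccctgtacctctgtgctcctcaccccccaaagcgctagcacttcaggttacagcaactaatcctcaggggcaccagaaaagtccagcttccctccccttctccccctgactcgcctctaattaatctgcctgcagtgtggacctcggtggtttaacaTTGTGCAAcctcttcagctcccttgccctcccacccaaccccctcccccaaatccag

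Over all 250 upstream bases, Saa1 and Saa2 were 94.8% identical, against 48.9% for Saa1 and Saa3. The C/EBP match lay 182 to 175 bases before the start in Saa1 and 183 to 176 bases before it in Saa2, with the same letters in both. In Saa3 it lay 99 to 92 bases and in Ptx3 57 to 50 bases before the start. Of the 8 members with a RefSeq entry, 7 held a C/EBP match (Lcn2, the 3 Saa genes, Ptx3, Cp in 1 of its start sites, and Steap4), against 9.56% of all 32851 upstream windows. Serpina3n held none. The share of 9.56% counts windows, the 8 members had 9 windows, and those of Saa1 and Saa2 are nearly the same sequence. The Lcn2 window lies mostly in exons of other Lcn2 transcripts and is not shown. The Cp window with the C/EBP match has 195 of its 250 bases in deposited exons of Cp, and the match lies in them. Steap4 also held the only match among the members to the STAT motif TTCCNGGAA (0.913% of all windows) and the only matches to the NF-κB consensus (3.90% of all windows). The letters TATAAA were found in Cp and Steap4, and in 12.4% of all windows. The matches of different motifs in a member did not overlap. A match is a string of letters, and no binding was measured here.

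Lcn2 (ENSMUSG00000026822, chromosome 2, 32384633 to 32388252, minus strand) encodes lipocalin-2, which binds bacterial siderophores and so withholds iron. Its level was 11.996, 37.7, 13.1 and 8.04 CPM in the 4 SS libraries, and 2063, 907 and 736 CPM at day 1. It was 57.6, 82.0 and 57.3 CPM at day 4 and 17.3, 9.98 and 46.3 CPM at day 7. The lowest day 1 library was thus 19.5 times the highest SS library, the 3 libraries of day 4 also lay above all 4 at SS, and those of day 7 overlapped SS.

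Saa3 encodes the serum amyloid A that is made mainly outside the liver. It was at 20.9, 258, 8.43 and 13.5 CPM at SS, at 3784, 2058 and 1546 CPM at day 1, at 93.1, 116 and 62.9 CPM at day 4, and at 26.9, 8.62 and 265 CPM at day 7. A single library at SS (PBS day 4 replicate 2) and a single library at day 7 (replicate 3) stood far above the others of their group. The log2 fold change of day 1 against SS was 5.03 (standard error 1.62) with all libraries and 7.43 without PBS day 4 replicate 2. Per length, Saa3 was the most abundant of the 10 genes at day 1 (945 ± 450 CPM per kb, mean ± SD, n = 3), followed by Lcn2 (471 ± 275), and their spreads overlapped.

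Saa1 and Saa2 encode the serum amyloid A proteins that travel on high-density lipoprotein. Saa1 was at 14.2, 3.45, 7.42 and 2.28 CPM at SS, 75.5, 47.3 and 38.3 CPM at day 1, 3.94, 6.81 and 5.74 CPM at day 4, and 1.13, 2.01 and 1.27 CPM at day 7. Day 1 lay above SS in every library, day 4 lay within the SS range, and day 7 lay below every SS library. Saa2 was at 1.89, 0.575, 0.818 and 0.145 CPM at SS, 12.98, 12.6 and 8.32 CPM at day 1, 0.323, 0.404 and 0.407 CPM at day 4, and 0.0615, 0.0819 and 0.271 CPM at day 7. The Saa2 values at day 7 rest on 3, 4 and 10 counts, and that of PBS day 7 replicate 2 on 3 counts, the floor of detection used here. Between the day 1 libraries and SS, the log2 fold change was 2.97 (standard error 0.75) for Saa1 and 3.68 (standard error 0.91) for Saa2. Without PBS day 1 replicate 2, the SS library with the highest level of both genes, that of Saa2 was 4.45. Saa1 had 3.75 to 5.82 counts for each Saa2 count at day 1 and 6.00 to 15.7 at SS, and these ranges did not overlap. The highest SS ratio rests on 3 Saa2 counts. At days 4 and 7 the ratio was 12.2 to 16.9 and 4.70 to 24.5.

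Hp (ENSMUSG00000031722, chromosome 8, 109575128 to 109579172, minus strand) encodes haptoglobin, which binds free hemoglobin. It was at 12.9, 307, 14.0 and 57.0 CPM at SS and 523, 888 and 367 CPM at day 1. It was at 213, 242 and 118 CPM at day 4 and 151, 25.2 and 309.8 CPM at day 7. The day 1 libraries lay above SS by a narrow margin, the lowest being 1.19 times PBS day 4 replicate 2. The log2 fold change of day 1 against SS was 2.60 (standard error 1.13), and 4.41 without that library.

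Orm1 (ENSMUSG00000039196, chromosome 4, 63344560 to 63348163, plus strand) encodes orosomucoid, an acidic plasma glycoprotein. It was at 6.43, 1.78, 2.02 and 1.21 CPM at SS, 15.7, 6.97 and 9.63 CPM at day 1, 3.16, 6.48 and 5.81 CPM at day 4, and 1.21, 1.56 and 1.87 CPM at day 7. The lowest day 1 library was 1.08 times the highest SS library, PBS day 1 replicate 2. The log2 fold change of day 1 against SS was 1.90 (standard error 0.64), and 2.73 without PBS day 1 replicate 2.

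Ptx3 (ENSMUSG00000027832, chromosome 3, 66219910 to 66225805, plus strand) encodes a long pentraxin that recognizes microbes and takes part in the assembly of extracellular matrix. It was at 0.680, 4.43, 0.710 and 7.36 CPM at SS, 7.18, 104 and 67.6 CPM at day 1, 3.55, 1.18 and 0.666 CPM at day 4, and 5.85, 0.553 and 6.86 CPM at day 7. Replicate 1 of day 1 did not share the high level of the other 2 libraries and lay just below PBS day 7 replicate 2. The same library was the lowest of its day for Cebpd, a C/EBP factor, at 5.37 CPM against 188 and 138 CPM, and for Socs3, the feedback inhibitor of STAT3, at 62.6 CPM against 439 and 382 CPM. Cebpd and Socs3 were singled out from the list of upstream regulators after their values were seen. Some markers of other cells were low in day 1 replicate 1 too, such as Plvap (21.5 against 508 and 344 CPM) and Epcam (14.0 against 103 and 127 CPM). Others were highest in that library, such as Pecam1 (432 against 279 and 274 CPM) and H2-Aa (727 against 340 and 614 CPM). Its EC markers summed to 688 CPM against 1122 and 961 CPM, and its TEC markers to 870 CPM against 552 and 1421 CPM. Il6 was highest there (44.6 against 23.0 and 17.1 CPM). At day 4, Cebpd was at 132, 26.6 and 20.4 CPM and Socs3 at 475, 182 and 103 CPM. The column tag of day 1 replicate 1 is of another family than that of replicates 2 and 3. The part of the tag in these values cannot be told apart from the library.

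Serpina3n (ENSMUSG00000021091, chromosome 12, 104406729 to 104414329, plus strand) encodes a secreted serine protease inhibitor. It was at 87.7, 231, 69.2 and 60.1 CPM at SS and 1013, 959 and 605 CPM at day 1, with no overlap. It was at 234, 224 and 168 CPM at day 4 and 164, 56.7 and 148 CPM at day 7. The day 4 range overlapped SS only through PBS day 4 replicate 2, and the day 7 range reached below every SS library. The log2 fold change of day 1 against SS was 2.94 (standard error 0.71), close to that of Saa1 at a level per length of 416 ± 107 against 21.7 ± 7.84 CPM per kb.

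Steap4 and Cp had the smallest log2 fold changes of the 10 genes at day 1. Steap4 (ENSMUSG00000012428, chromosome 5, 7960457 to 7982213, plus strand) encodes a metalloreductase of iron and copper. It was at 426, 634, 408 and 464 CPM at SS, 1166, 914 and 684 CPM at day 1, 796, 799 and 649.5 CPM at day 4, and 592, 253 and 456 CPM at day 7. Days 1 and 4 lay above every SS library, and day 7 overlapped SS. Cp (ENSMUSG00000003617, chromosome 3, 19957054 to 20009145, plus strand) encodes ceruloplasmin, the copper ferroxidase. It was at 333, 410.4, 338 and 486 CPM at SS, 614, 534 and 427 CPM at day 1, 425, 475 and 380.1 CPM at day 4, and 362, 275 and 408 CPM at day 7. All 3 later ranges overlapped SS for Cp. The log2 fold change of day 1 against SS was 0.93 (standard error 0.35) for Steap4 and 0.42 (standard error 0.24) for Cp.

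**Figure D1:**
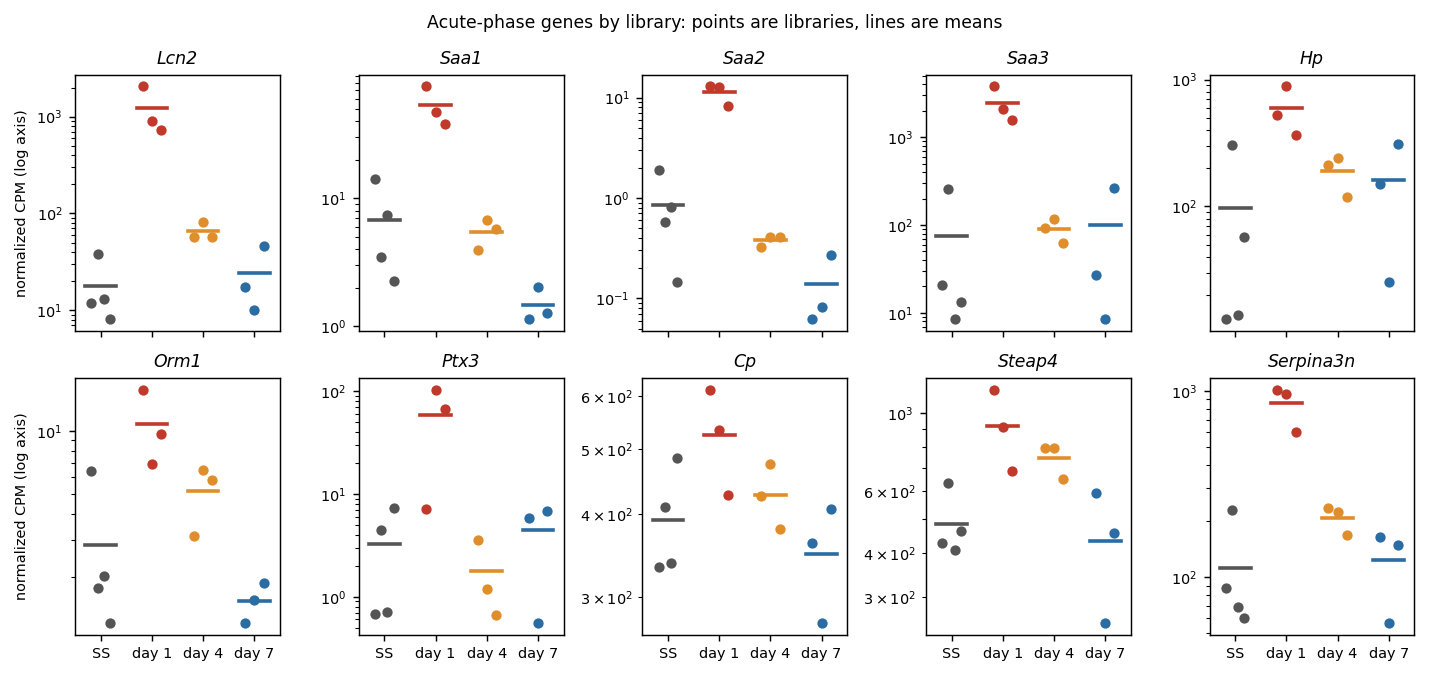
Level of the 10 genes in each library in normalized CPM, on log axes, for SS (n = 4) and the 3 time points of TBI (n = 3 each). Points are libraries and lines are group means. The day 1 libraries lie above all SS libraries for 8 genes and overlap SS for Ptx3 and Cp.

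At day 1, 8 of the 10 genes had all 3 libraries above all 4 at SS, which 7.25% of all tested genes also showed. The 2 others were Ptx3 and Cp. These counts describe the values by which the genes were chosen. The log2 fold changes against SS were above 0 for all 10 genes, with a median of 2.95, whereas the median of all tested genes was −0.10. Lcn2 (6.12, standard error 1.23), Saa3 and Ptx3 (4.20, standard error 1.36) had the largest values and Cp the smallest. Several of these values depended on single libraries. Without PBS day 4 replicate 2, the value was 6.80 for Lcn2 and 3.57 for Serpina3n, and without day 1 replicate 1 that of Lcn2 was 5.54. That of Ptx3 was 4.94 without PBS day 7 replicate 2 and 3.53 without day 1 replicate 2, and that of Saa1 was 3.66 without PBS day 1 replicate 2.

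At day 4, most of the genes were at lower levels than at day 1. The 3 libraries of day 4 lay below all 3 of day 1 for 8 genes, and those of Steap4 and Cp overlapped (13.7% of all tested genes lay lower without overlap). At day 7, all 10 genes lay below day 1 without overlap (14.8% of all tested genes). The median log2 fold change of the 10 genes against day 1 was −2.66 at day 4 and −3.28 at day 7. These values share the day 1 libraries with the comparison that chose the genes, so they too are only described.

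The comparison of day 4 with SS asks whether the genes were still raised. It shares the SS libraries with the comparison of day 1 with SS, as does that of day 7 with SS, so neither is independent of the choice of the genes, and the day 1 libraries enter the common estimate of spread. None of the 10 genes passed an adjusted p of 0.05 with edgeR's quasi-likelihood test, against 0.29% of all tested genes. At an unadjusted p under 0.05 there were 2 genes, Lcn2 and Steap4, against 13% of all tested genes, and DESeq2 called 1 gene, Lcn2, against 3.23%. Lcn2 and Steap4 were also the 2 genes whose day 4 libraries lay above all SS libraries, which 6.44% of all tested genes did. Lcn2 had 65.6 ± 14.2 CPM at day 4 against 17.7 ± 13.5 CPM at SS (log2 fold change 1.89, standard error 0.69, adjusted p = 0.223, edgeR). Across the other settings tried, its adjusted p ran from 0.0389 to 0.684, and it was 0.143 with only the libraries of day 4 and SS in the edgeR fit. Without PBS day 4 replicate 2 its log2 fold change was 2.57. Steap4 had a log2 fold change of 0.63 (standard error 0.32, adjusted p = 0.383, edgeR). Those of Hp (0.97, standard error 1.01), Serpina3n (0.90, standard error 0.50) and Orm1 (0.85, standard error 0.55) were above 0, and none of them passed the threshold. Without PBS day 4 replicate 2, that of Hp was 2.78 and that of Serpina3n 1.53, and without PBS day 1 replicate 2 that of Orm1 was 1.72, all short of the threshold (adjusted p of 0.141, 0.0886 and 0.101, edgeR). Saa2 (−1.18, standard error 0.70), Ptx3 (−0.92, standard error 1.12) and Saa1 (−0.31, standard error 0.53) were below 0, and Saa1 was 0.42 without PBS day 1 replicate 2 and 0.0136 without day 4 replicate 1. Saa2 was −0.38 without PBS day 1 replicate 2, and Ptx3 was −0.18 without PBS day 7 replicate 2 and −1.71 without day 4 replicate 1. Saa3 was at 0.27 (standard error 1.18) and Cp at 0.12 (standard error 0.23). The value of Saa3 was 2.67 without PBS day 4 replicate 2, −0.0167 without PBS day 7 replicate 1 and −0.0802 without PBS day 7 replicate 2.

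At day 7 the lowest values against SS were those of Saa1 and Saa2. None of the 10 genes passed the threshold with edgeR, against 0.005% of all tested genes, while 2 had an unadjusted p under 0.05 (13.5% of all tested genes) and DESeq2 called those same 2, Saa1 and Saa2 (5.42% of all tested genes). Saa1 had 1.47 ± 0.471 CPM at day 7 against 6.83 ± 5.37 CPM at SS (log2 fold change −2.22, standard error 0.70, adjusted p = 0.118, edgeR). It was the 1 gene of the 10 with all day 7 libraries below all SS libraries, as were 4.67% of all tested genes. Saa2 had a log2 fold change of −2.69 (standard error 0.89, adjusted p = 0.129, edgeR), and its ranges overlapped. Both genes passed the threshold with DESeq2 (adjusted p = 0.00389 for Saa1 and 0.00577 for Saa2) and without the filter on low counts (edgeR adjusted p = 0.0208 and 0.0327). Across all other settings the edgeR or DESeq2 adjusted p ran up to 0.450 for each. Without PBS day 1 replicate 2, the log2 fold change was −1.60 for Saa1 and −1.99 for Saa2, and without day 7 replicate 3 that of Saa2 was −3.51. The other 8 genes had values between −0.90 (Orm1) and 0.73 (Hp). Leaving out day 7 replicate 3 turned those of Lcn2 (0.47 to −0.36), Saa3 (0.41 to −2.07) and Hp (0.73 to −0.13), and no direction can be read from them. Without PBS day 4 replicate 2 the same values were 1.15, 2.81 and 2.54. Orm1 was −0.14 without PBS day 1 replicate 2, and Ptx3, at 0.45, was 1.19 without PBS day 7 replicate 2. The values of Cp, Steap4 and Serpina3n, between −0.17 and 0.14, also changed sign without 1 library, and Serpina3n was 0.76 without PBS day 4 replicate 2.

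**Figure D2:**
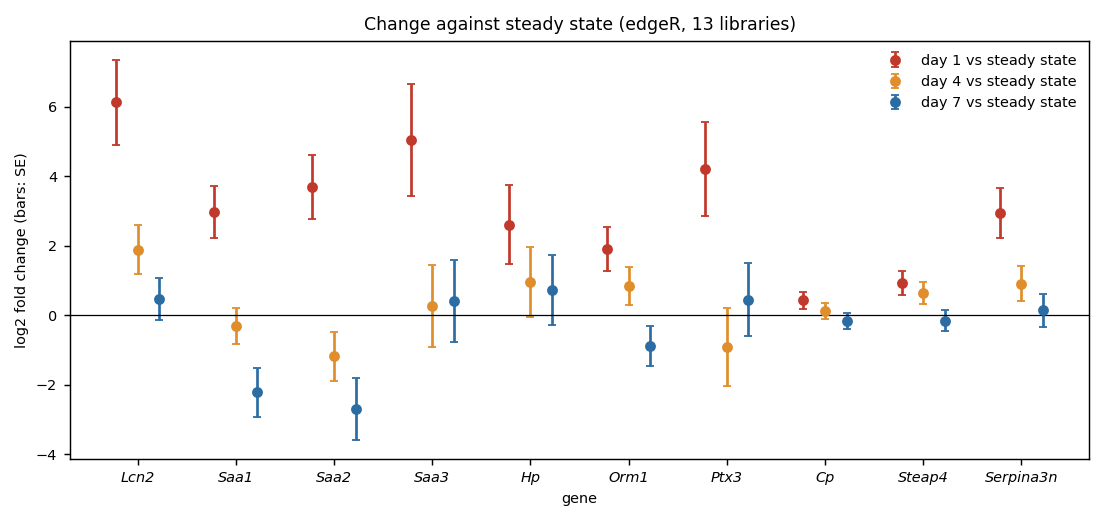
Log2 fold change of the 10 genes against SS at the 3 time points of TBI, from 1 edgeR fit of all 13 libraries. Points are estimates and bars are standard errors. The day 1 values chose the genes and were not tested, and none of the day 4 and day 7 values passed an adjusted p of 0.05. Saa1 and Saa2 lie at −2.22 and −2.69 at day 7.

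Between days 4 and 7, 6 of the 10 genes were lower at day 7 without overlap (Lcn2, Saa1, Saa2, Orm1, Steap4 and Serpina3n), against 14% of all tested genes. None passed the threshold with edgeR, against 3.9% of all tested genes. At an unadjusted p under 0.05 there were 4 (18.7% of all tested genes), and DESeq2 called 2 (9.61%). Saa1 (log2 fold change −1.91, standard error 0.68, adjusted p = 0.0847, edgeR) and Orm1 (−1.74, standard error 0.67, adjusted p = 0.111, edgeR) came nearest. Both passed it with DESeq2 (adjusted p = 0.0103 and 0.0203). Both also passed it with edgeR when PBS day 1 replicate 2, a library of neither day, was left out (adjusted p = 0.0239 and 0.0213). The value of Saa3 was 0.15 (standard error 1.26), and −2.42 without day 7 replicate 3 and −0.0602 without day 4 replicate 3. That of Hp was −0.24 (standard error 1.06), and 0.19 without day 7 replicate 2 and −1.18 without day 7 replicate 3. Without day 7 replicate 3, Lcn2 went from −1.42 to −2.35 and Saa2 from −1.51 to −2.47, and Ptx3 went from 1.37 to 2.17 without day 4 replicate 1. Other cell markers moved between these days. The sum of the TEC markers was lower at day 7 without overlap, and Ccl21a and H2-Aa passed the threshold among these 7 genes. The 10 thymocyte markers summed to 18.2, 18.8 and 29.9 CPM at day 4 and 192, 4354 and 1915 CPM at day 7, and all 10 passed. Replicate 2 of day 7, with the highest thymocyte sum, was the lowest of its day for 7 of the 10 acute-phase genes. The part of these cells in the result was not tested. The comparisons of days 4 and 7 with SS share the SS libraries, and this one shares the libraries of both days with them.

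The make-up of the group was different at day 1. Per length, the 10 genes summed to 221 to 666 CPM per kb at SS, 1713 to 3547 at day 1, 457 to 649.5 at day 4 and 162 to 577 at day 7. Steap4 and Cp together made up 36.6% to 74.4% of this sum at SS and 12.2% to 15.3% at day 1. Lcn2 and Saa3 together made up 2.98% to 17.0% at SS, 44.2% to 63.1% at day 1, 9.49% to 11.6% at day 4 and 4.03% to 20.7% at day 7. Steap4 was the most abundant of the 10 per length at SS (153 ± 32.8 CPM per kb) and at day 4 (237 ± 27.1), in every library of both. At day 7 it had the highest mean (137 ± 54.0), whereas Hp (101 ± 88.8) was the highest in replicate 3, at 193 against 145 CPM per kb, and their spreads overlapped. By its mean, Saa2 was the least abundant at every time. Serpina3n kept a similar share, 10.6% to 17.1% at SS and 13.8% to 18.1% at day 1. All 10 genes took 0.0909% to 0.156% of the counts of a library at SS and 0.450% to 0.896% at day 1. These shares describe the values that chose the genes and were not tested.

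**Figure D3:**
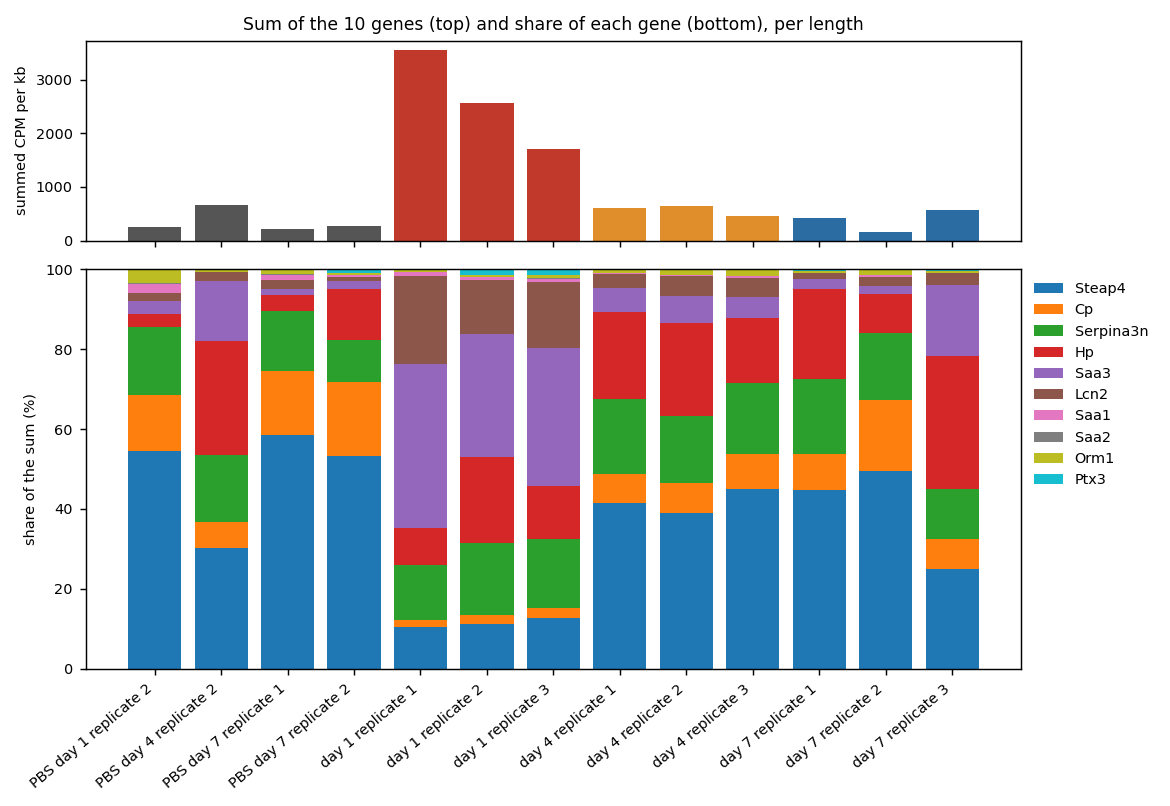
Top, sum of the 10 genes in each library in normalized CPM per kb of exon. Bottom, share of each gene in that sum in percent. Bars are single libraries. Lcn2 and Saa3 take 44.2% to 63.1% of the sum in the day 1 libraries and at most 20.7% in any other.

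Markers of other cells that make these proteins were read in the same libraries. Neutrophils store Lcn2 and Hp protein in their granules. Of 12 neutrophil markers, Ltf is given apart, at 36.1 to 289 CPM over all libraries. The other 11 markers together had 5.45 to 31.4 CPM at SS, 24.4 to 50.3 at day 1, 5.10 to 7.53 at day 4 and 1.93 to 11.8 at day 7. Their sum was thus higher at day 1 in its median (32.1 against 10.6 CPM at SS), with overlapping ranges. Of the 11 neutrophil markers tested, 2 were higher at day 1 (2.35% of all tested genes changed in either direction). Csf3r, the receptor for G-CSF, was at 0.285, 0.0750, 0.0646 and 0.0484 CPM at SS and 4.84, 4.41 and 5.91 CPM at day 1 (log2 fold change 5.30, standard error 1.12, adjusted p = 0.000707, edgeR). Cxcr2, a chemokine receptor of neutrophils, was at 0 to 0.110 CPM at SS and 1.70, 0.604 and 1.65 CPM at day 1 (log2 fold change 4.49, standard error 1.21, adjusted p = 0.0162, edgeR). Neither overlapped SS. The defining marker S100a8 had 0.825 to 8.33 CPM at SS and 4.55 to 11.8 CPM at day 1, which overlapped. The part of neutrophils in the day 1 levels was not tested. Albumin (Alb), the defining marker of hepatocytes, had 0 to 1.02 CPM in the 13 libraries. The sum of the 6 hepatocyte markers, 13.1 to 268 CPM, was led by Cyp2e1 (6.00 to 259.8 CPM), which fat cells also express.

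The 6 adipocyte markers summed to 25.7, 705, 17.1 and 58.7 CPM at SS, with PBS day 4 replicate 2 far above the others. They summed to 119, 763 and 400 CPM at day 1, 655, 858 and 407 CPM at day 4, and 312, 99.4 and 533 CPM at day 7. Adipoq, which encodes adiponectin, had 53.8 CPM in PBS day 4 replicate 2 and 1.23 to 19.1 CPM in the other SS libraries. Lcn2, Saa3, Hp, Steap4 and Serpina3n were each highest at SS in PBS day 4 replicate 2, and Saa1, Saa2 and Orm1 in PBS day 1 replicate 2. At day 1 the adipocyte sum was lowest in replicate 1, the library with the highest levels of 8 of the 10 genes, the exceptions being Hp and Ptx3. Replicate 3 of day 7 was the highest of its day for 7 of the 10 genes.

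**Figure D4:**
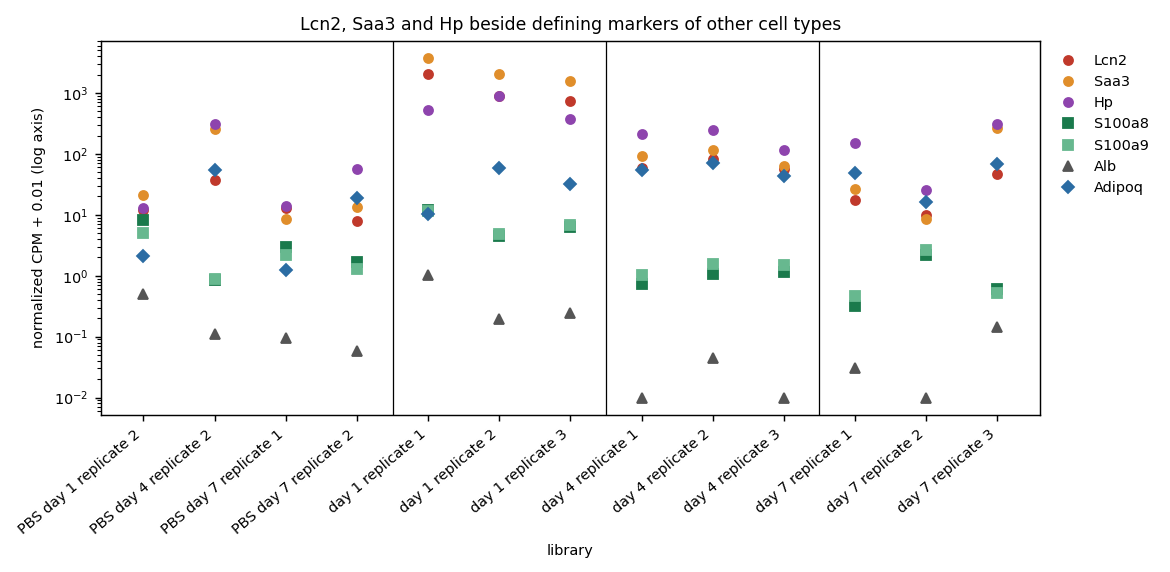
Lcn2, Saa3 and Hp with S100a8 and S100a9 (neutrophil), Alb (hepatocyte) and Adipoq (adipocyte) in the 13 libraries, in normalized CPM + 0.01 on a log axis. Points are single libraries and vertical lines separate the conditions. Values are not divided by length. S100a8 stays at 11.8 CPM or less and Alb at 1.02 CPM or less in every library.

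Within conditions, the deviation of each gene from the mean of its condition was compared over the 13 libraries with those of 6 marker scores (TEC, FB, EC, adipocyte, neutrophil and thymocyte), on the scale of log2(CPM + 0.5). The neutrophil score takes in all 12 markers, Ltf included. Several of them had SS means below the pseudocount (Retnlg 0.149, Csf3r 0.118, Cxcr2 0.0507, Mmp8 0.207 and Elane 0.106 CPM), which limits what this score can show. The comparison uses differences between libraries of 1 condition and not the change that chose the genes. The SS libraries carry PBS days 1, 4 and 7 in their names, so their differences may include differences between days. None of the 60 relations passed the Benjamini-Hochberg adjustment in exact permutation tests within conditions (two-sided, 5184 permutations), the lowest adjusted p being 0.0694 for Pearson's r and 0.0617 for Spearman's rho. At an unadjusted p under 0.05 for r there were 10 relations, each of Hp, Ptx3, Saa1 or Orm1 with the FB, adipocyte or neutrophil score. Hp went with the adipocyte score (r = 0.91, permutation p = 0.00386, Spearman's rho = 0.91, permutation p = 0.00482, adjusted p = 0.0694 for r, n = 13), and r was 0.82 without the 2 libraries farthest in that score. It also went with the FB score (r = 0.84, permutation p = 0.0149, rho = 0.92, permutation p = 0.00309, adjusted p = 0.0617 for rho) and against the neutrophil score (r = −0.81, permutation p = 0.0249, rho = −0.89, permutation p = 0.00521, adjusted p = 0.0617 for rho), with r of 0.77 and −0.69 without the 2 farthest libraries. Ptx3 went against the neutrophil score (r = −0.89, permutation p = 0.00154, rho = −0.87, permutation p = 0.00347, adjusted p = 0.0694 for r), and r was −0.90 without the 2 farthest libraries. It went with the adipocyte score (r = 0.83, permutation p = 0.00656, rho = 0.81, permutation p = 0.00926) and the FB score (r = 0.72, permutation p = 0.00694, rho = 0.85, permutation p = 0.00540), with r of 0.94 and 0.87 without the 2 farthest libraries. Saa1 went with the neutrophil score (r = 0.90, permutation p = 0.00367, rho = 0.87, permutation p = 0.0137, adjusted p = 0.0694 for r), and r was 0.84 without the 2 farthest libraries. Orm1 also went with the neutrophil score (r = 0.79, permutation p = 0.00559, rho = 0.74, permutation p = 0.00617), and both Saa1 (r = −0.88, permutation p = 0.0172, rho = −0.83, permutation p = 0.0330) and Orm1 (r = −0.78, permutation p = 0.0127, rho = −0.69, permutation p = 0.0158) went against the FB score. Without the 2 farthest libraries r was 0.73, −0.80 and −0.62. Lcn2 had r = −0.19 with the neutrophil score (permutation p = 0.629, rho = −0.21, permutation p = 0.583, adjusted p = 0.686 for r), and 0.0969 without the 2 farthest libraries.

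**Figure D5:**
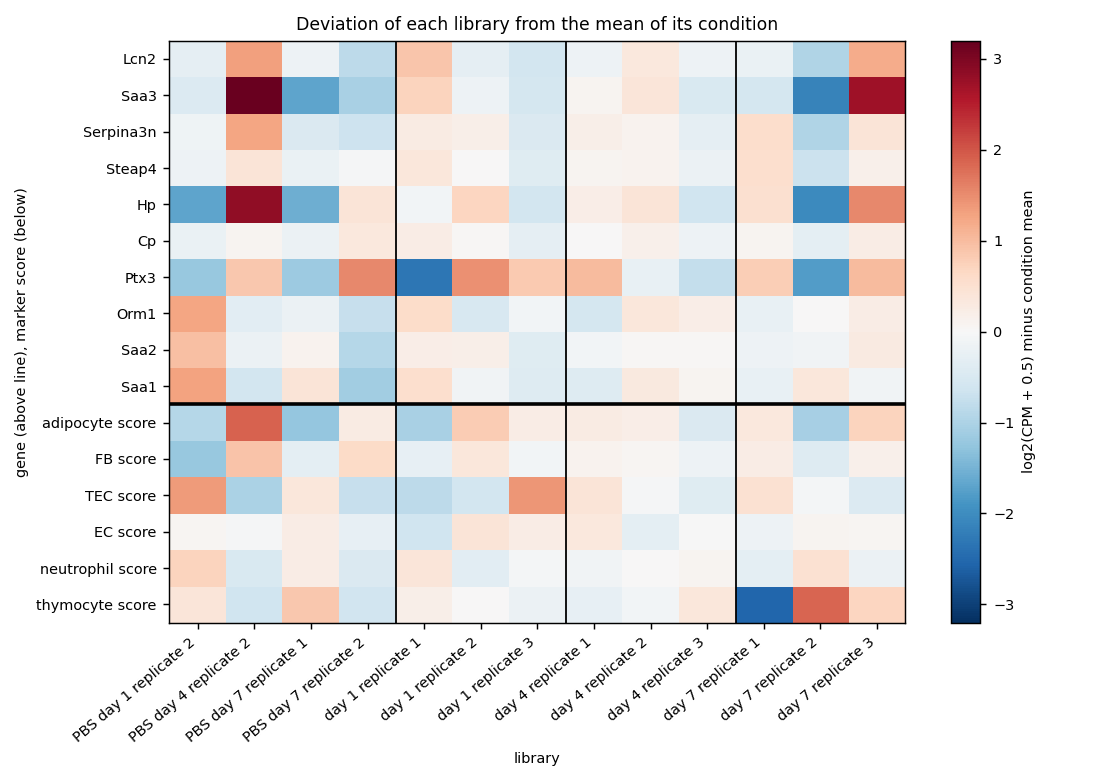
Deviation of each library from the mean of its condition, in log2(CPM + 0.5), for the 10 genes (above the horizontal line) and 6 marker scores (below it). Columns are the 13 libraries and vertical lines separate the conditions. Saa3 and Hp deviate most in PBS day 4 replicate 2, by 3.16 and 2.84.

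Genes outside the group with the most similar pattern over the 13 libraries were ranked by Pearson's r of log2(CPM + 0.5), among 11449 genes with a mean of at least 5 CPM. This is a description, since the libraries share conditions and the day 1 libraries stand apart in it. For Lcn2 they were Irf7 (r = 0.99, rho = 0.97), Il18bp (0.97), H2-T22 (0.97), Cxcl5 (0.97) and Ddx60 (0.96). For Serpina3n they were Irf7 (r = 0.98, rho = 0.96), Chl1 (0.97), Shisa5 (0.96), Lgals3bp (0.96) and Apol6 (0.96). Irf7, a transcription factor of the interferon response, was the first for both. For Ptx3 they were Ube2m (r = 0.95, rho = 0.88), Plod3 (0.94), Ckap4 (0.94), Rpn1 (0.92) and Git1 (0.92), and none of these was among the first for Lcn2 or Serpina3n.

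Other genes of the acute-phase response were tested on the same libraries. This list and those in the paragraphs below were drawn up with earlier results of these data known. Their calls describe these libraries and are not independent of that choice. Of 46 listed genes, 43 passed the filter, and 5 were higher at day 1 than at SS (2.35% of all tested genes changed in either direction). These were the metallothioneins Mt2 and Mt1, which bind zinc and copper, the heme oxygenase Hmox1, the complement protease Cfb and the lipopolysaccharide receptor Cd14. Mt2 was at 6.75, 16.8, 3.81 and 11.1 CPM at SS and 233, 75.1 and 69.9 CPM at day 1 (log2 fold change 3.71, standard error 0.84, adjusted p = 0.00185, edgeR). Mt1 had a log2 fold change of 2.56 (adjusted p = 0.0103, edgeR), Cfb 1.58 (adjusted p = 0.0378), Hmox1 1.50 (adjusted p = 0.0149) and Cd14 1.11 (adjusted p = 0.0360). The median log2 fold change of the 43 genes was 0.77, against −0.10 for all genes. The list also holds negative acute-phase genes, which fall in the response (Alb, Ttr, Trf, Rbp4, Apoa1 and Ahsg). Its medians and counts therefore pool genes of both directions. The number past the threshold ran from 1 without day 1 replicate 1 to 8 without PBS day 4 replicate 2, and it was 2 without PBS day 7 replicate 2 and 3 without each of 6 other libraries (PBS day 7 replicate 1, replicates 2 and 3 of day 1, replicates 2 and 3 of day 4 and replicate 3 of day 7). None of the 43 passed at day 4 (10 at an unadjusted p under 0.05, 1 with DESeq2) or at day 7 (14 at an unadjusted p under 0.05, 10 with DESeq2). The median was 0.15 at day 4 and −0.43 at day 7. At day 7, 5 of them passed without PBS day 4 replicate 2 and 2 without day 7 replicate 1.

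Of the upstream ligands, receptors and factors (33 genes, 31 tested), 1 was higher at day 1 (2.35% of all tested genes changed), Il1b, which encodes the cytokine IL-1β (2.04, 0.300, 0.947 and 0.581 CPM at SS and 4.98, 3.39 and 6.41 CPM at day 1, log2 fold change 2.33, standard error 0.71, adjusted p = 0.0480, edgeR). Il6 was at 9.12, 6.88, 0.775 and 1.07 CPM at SS and 44.6, 23.0 and 17.1 CPM at day 1 (log2 fold change 2.65, standard error 0.89, adjusted p = 0.0809, edgeR). Osmr, a receptor chain for oncostatin M, had a log2 fold change of 0.95 (adjusted p = 0.0535, edgeR). The factors Stat3 (0.29), Cebpb (1.16) and Cebpd (−0.12) did not pass. The list had a median of 0.20 at day 1, and its count of 1 became 0 without PBS day 7 replicate 1, PBS day 7 replicate 2, day 1 replicate 1, day 1 replicate 2, day 4 replicate 2 or day 4 replicate 3. It became 2 without day 7 replicate 2, 3 without PBS day 1 replicate 2 and 4 without PBS day 4 replicate 2. None passed at day 4 (6 at an unadjusted p under 0.05, 0 with DESeq2) or day 7 (8 at an unadjusted p under 0.05, 5 with DESeq2), where 1 passed without PBS day 4 replicate 2.

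Of the receptors, carriers and iron-handling partners of the 10 proteins (35 genes, 29 tested), Slc11a2, an iron importer, was higher at day 1 (log2 fold change 1.06, standard error 0.31, adjusted p = 0.0351, edgeR), and Heph, a ferroxidase like ceruloplasmin, was lower (−1.16, standard error 0.34, adjusted p = 0.0376, edgeR). This is 2 genes, against 2.35% of all tested genes. Slc11a2 was at 31.8, 39.4, 27.5 and 26.8 CPM at SS and 90.2, 56.0 and 50.2 CPM at day 1, and Heph at 29.4, 53.6, 33.8 and 55.6 CPM and 18.9, 17.0 and 21.8 CPM. Slc22a17, the lipocalin-2 receptor, was at 20.9, 15.3, 21.5 and 19.4 CPM at SS and 1.33, 16.9 and 15.2 CPM at day 1 (log2 fold change −0.79, standard error 0.78, adjusted p = 0.625, edgeR). Among the day 1 libraries, only replicate 1 was far below SS. Low values of Slc22a17 also occurred later, at 19.1, 3.11 and 3.11 CPM at day 4 and 20.8, 8.01 and 15.5 CPM at day 7. The count of 2 in this list fell to 0 without PBS day 7 replicate 1, PBS day 7 replicate 2, day 1 replicate 1, day 1 replicate 2, day 4 replicate 2 or day 4 replicate 3, and to 1 without day 1 replicate 3, day 4 replicate 1, day 7 replicate 2 or day 7 replicate 3. None passed at day 4 (5 at an unadjusted p under 0.05, 2 with DESeq2) or day 7 (3 at an unadjusted p under 0.05, 1 with DESeq2), and 1 passed at day 4 without PBS day 1 replicate 2. Of 13 siderophore and antimicrobial genes, all tested, 1 passed at day 1 (2.35% of all tested genes), Cxcl5, a chemokine that attracts neutrophils. It was at 397, 237 and 138 CPM at day 1 against 3.47 to 20.1 CPM at SS, and the median of this list was 0.63. None of the 13 passed with edgeR at day 4 (2 at an unadjusted p under 0.05) or day 7 (4 at an unadjusted p under 0.05).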

How the data were processed

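The data are bulk RNA-seq of CD45- thymic cells, with 4 SS libraries and, for TBI, 3 libraries on each of days 1, 4 and 7. The authors depleted and sorted the cells, trimmed reads with Trimmomatic 0.38, aligned them to GRCm38 with STAR 2.7.0e and counted them with featureCounts 1.6.3. The deposited values are raw counts, 1 whole number for each gene in each library. By default the counting uses no strand and leaves out multimapping reads. Symbols came from GENCODE M21. SS columns carry no replicate number of the labels and were used as a group. The 10 genes and the gene lists were chosen with earlier results of these data known.

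All 13 libraries entered 1 fit in edgeR 4.0.16 (R 4.3.3) with a term for condition, TMM normalization, filterByExpr() and the quasi-likelihood F-test. A Benjamini-Hochberg adjusted p of 0.05 or less over 19984 genes was the threshold. Standard errors came from dividing each log2 fold change by the normal quantile of its p-value. Log2 levels used a pseudocount of 0.5. Counts of 3 or fewer were treated as the detection floor. Of the listed genes, those past the threshold are named, up to 10 per comparison, and the 5 genes most similar to Lcn2, Serpina3n and Ptx3. Other listed genes named were chosen after their values were seen. Scores are means of log2 levels over markers. Steps were tested on simulated data. Alternatives were DESeq2 1.42.0, RLE, other filters, only the conditions compared, the tag family, a replicate block, TPM and each library left out. Those of the correlations were added after seeing the data. Total counts of 15721866 to 52056896 limit the precision of Saa2 and Orm1. Python 3.11.15 made tables and plots.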

Additional observations from a re-analysis of the deposited data

Results flagged for a closer look

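In the 4 libraries at SS, Dixon's test compared the gap between the extreme library and its neighbour with the full range, for each of the 10 genes. The critical ratio was passed for 5 of the 10 genes, and the 10 genes are not independent of each other. Chance gives about 1 in 20 only where values are normally distributed. The ratios were computed on CPM and not on log2 levels, so that rate may not hold and the flags may depend on the scale. In PBS day 4 replicate 2, Lcn2 had 37.7 CPM against at most 13.1 in the others (ratio 0.8294, barely past the critical one). In the same library Saa3 had 258 CPM against at most 20.9 (ratio 0.950), Hp had 307 CPM against at most 57.0 (ratio 0.850) and Serpina3n had 231 CPM against at most 87.7 (ratio 0.838). This library also had the highest sums of FB and adipocyte markers at SS, whose part in these values was not tested. Its FB sum was led by Col3a1 (63872 CPM) and Col1a1 (26605 CPM), both highest at SS in this library. Pdgfra was lowest there (659 CPM, against 677 to 884 CPM in the other SS libraries). Dpt (1429 CPM) and Dpp4 (236 CPM) lay within the range of the others. In PBS day 1 replicate 2, Orm1 had 6.43 CPM against at most 2.02 (ratio 0.844).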

How the results depend on the processing

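Of the log2 fold changes of the 10 genes that were tested, 547 values under other settings kept their direction and their side of the threshold, 10 passed it only there and 20 changed direction. With a covariate for the tag family, the log2 fold change of Lcn2 at day 7 against SS was −0.0520, that of Saa3 was −0.56, and that of Saa3 at day 7 against day 4 was −1.24. Same-numbered libraries after TBI did not deviate together (correlations from −0.843 to 0.268), and the main fit did not pair them. These correlations cannot show whether same-numbered libraries were collected or processed together, and the labels do not say. The fit with the replicate number as a block held only the libraries after TBI. In it the log2 fold change of Saa3 at day 7 against day 4 was −0.69, and 0 of 19176 genes passed in that comparison. In the fit of all 13 libraries without a block 779 passed. With only days 4 and 7 in the fit and no block, 94 were higher and 300 lower. With 1 library left out, the log2 fold change at day 4 against SS ran from −0.60 to 0.42 for Saa1 and from −0.0802 to 2.67 for Saa3. At day 7 against SS it ran from −0.36 to 1.15 for Lcn2, from −2.07 to 2.81 for Saa3, from −0.13 to 2.54 for Hp, from −0.28 to 0.0120 for Cp, from −0.45 to 0.16 for Steap4 and from −0.13 to 0.76 for Serpina3n. At day 7 against day 4 it ran from −2.42 to 0.60 for Saa3 and from −1.18 to 0.19 for Hp.

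The number of the 10 genes past the threshold with DESeq2 was 1 at day 4 against SS, 2 at day 7 against SS and 2 at day 7 against day 4. Without the filter it was 2 at day 7 against SS and 1 at day 7 against day 4. With 1 library left out it ran from 0 to 2 at day 7 against day 4. Of the other acute-phase genes, 1 passed at day 1 with only those conditions in the fit and 1 to 8 with a library left out. At day 4, 1 of them passed with DESeq2, and at day 7 there were 10 with DESeq2, 7 without the filter and 0 to 5 with a library left out. Of the upstream genes at day 1, 2 passed with RLE, 5 with DESeq2, 2 without the filter, 0 with only those conditions, 3 with the tag family and 0 to 4 with a library left out. At day 7 these numbers were 5 with DESeq2, 3 without the filter and 0 to 1 with a library left out. Of the partner genes at day 1, 1 passed with RLE, 0 with only those conditions and 0 to 3 with a library left out. At day 4 there were 2 with DESeq2, 1 without the filter and 0 to 1 with a library left out, and at day 7 there was 1 with DESeq2.

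Of all genes at day 1 against SS, 469 passed, against 855 higher and 544 lower with DESeq2 and 166 higher and 62 lower with only those conditions. At day 4 against SS, 58 passed, against 267 higher and 378 lower with DESeq2. At day 7 against SS, 1 passed, against 382 higher and 699 lower with DESeq2 and 17 higher and 203 lower without PBS day 4 replicate 2. The 10 correlations with markers at an unadjusted p under 0.05 kept their direction with Spearman's rho and without the 2 farthest libraries, and with rho they missed the adjusted threshold. Of all 60, 1 changed sign with rho and 6 without the 2 farthest libraries, for which no p was computed. The levels per length were also computed as TPM over all genes, which kept the order of the 10 genes within each condition. The cause of these differences was not tested. Depth limits Saa2, which had 3 to 86 counts in the libraries at SS and 3 to 10 at day 7.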
